A study of Mus musculus with 8 samples.

Results

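The interferon response genes described here are 37 mouse genes that encode the receptor for type I interferon, its signal transducers and transcription factors, cytosolic sensors of nucleic acid, negative regulators and antiviral effectors. All 37 were found by symbol in the mm10 gene annotation, which holds 49550 genes on the chromosomes used. A peak was assigned to one of them when its summit, the position of highest signal, lay inside the annotated span of the gene or within 10 kb of it. Peaks of the 8 libraries that shared at least 1 base were merged into 138385 regions, and 213 of these belonged to the interferon response genes. Each of the 37 genes had at least 1 region, and 7 regions belonged to more than 1 of the genes because their spans lie close together. Measured from the strongest summit of a region, those nearest to the 10 kb edge were one kept at 9997 bp from Ifnar2, held by 7 libraries, and one left out at 10021 bp from Ifih1, held by 4. A region of Dhx58, held by all 8, was kept through the summit of another library although its strongest summit lay 10491 bp away. For 44 of the 213 regions (20.7%) the strongest summit was also inside or within 1 kb of another protein-coding gene.

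ATAC-seq, which marks open chromatin through adapter insertion by a transposase, was performed on leukemic granulocyte-macrophage progenitors sorted as lineage-negative, Sca-1-, c-Kit+, CD34+ and CD16/32+ cells from the bone marrow of mice with MLL-AF9-driven acute myeloid leukemia. All 8 libraries share that oncogene. The groups differ in Dek, which encodes a chromatin-bound nuclear protein. In the Mx1-Cre set, the controls FL 1 and FL 2 had the genotype Dek fl/fl, and KO 1 and KO 2 had Dek fl/fl, MX1-Cre, a recombinase driven by an interferon-responsive promoter. In the Tie2-Cre set, FL 3 was Dek+/+ and KO 3 was Dek fl/fl;Tie2-Cre, a recombinase driven by a promoter of endothelial and blood-forming cells. The Tie2-Cre set also holds 4S-A 1 and 4S-A 2, with the alleles Dek-Ser306A/Ser308A/Ser311A/Ser312A, which put alanine in place of 4 serines of DEK. The controls of the sets therefore differ in genotype, and the labels give neither the age of the mice nor an agent, dose or time of Cre induction. The design text of the series names Tie2-Cre alone, so MX1-Cre is known from the labels of the samples alone. The genotypes of the FL and 4S-A libraries name no Cre, and each set is named here after the Cre of its KO libraries. The labels do not say that libraries of a group came from separate mice, so p-values measure only the spread between these libraries.

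Type I interferon binds a receptor made of IFNAR1 and IFNAR2, and the kinases bound to it phosphorylate STAT2. A complex that holds STAT2 and IRF9 binds the interferon-stimulated response element in the promoters of antiviral genes, whereas the gamma-activated sequence is known from genes that respond to interferon gamma. In blood-forming tissue the pathway is known both for antiviral defence and for driving resting stem cells into division, and the Mx1-Cre system uses it to switch on recombination.

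The letters that this complex reads were looked for in the promoters, taken as the 250 bases before and 50 bases after each annotated start (RefSeq, mm10). A promoter was available for 31 of the 37 genes, all but Mx1, Mx2, Oas2, Dhx58, Usp18 and Zbp1. The core of the interferon-stimulated response element was searched as GAAANNGAAA on both strands and found for 14 of the 31 genes (45.2%), against 687 of 17273 protein-coding genes (3.98%). The gamma-activated sequence was searched as TTCNNNGAA on both strands and found for 11 of the 31 (35.5%), against 1558 protein-coding genes (9.02%). Counted by promoter window, since a gene can have several starts, the response element core was in 36.8% of the 38 windows of these genes and 3.46% of all 32619 windows of the same length. The 2 motifs overlapped in 2 of the 38 windows, those of Bst2 and Ifitm3, and in 24 of all windows. A match describes letters and is not evidence of a bound factor.

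The upstream stretches below show the element, in capitals, in promoters that behaved differently in these cells. They run 5′ to 3′ on the strand of the gene and end at the base before the annotated start. Stat2 (chr10:128270248-128270497, plus strand) and Bst2 (chr8:71537473-71537722, minus strand) had a strong peak in all 8 libraries, Rsad2 (chr12:26456453-26456702, minus strand) a moderate one in all 8, Ifit1 (chr19:34640639-34640888, plus strand) a weaker one in 7, and Isg15 (chr4:156200819-156201068, minus strand) none.
Stat2: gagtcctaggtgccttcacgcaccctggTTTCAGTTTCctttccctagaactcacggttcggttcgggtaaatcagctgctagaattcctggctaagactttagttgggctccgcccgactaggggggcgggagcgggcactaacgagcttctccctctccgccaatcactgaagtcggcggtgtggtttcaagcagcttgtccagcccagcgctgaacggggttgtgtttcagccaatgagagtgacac
Bst2: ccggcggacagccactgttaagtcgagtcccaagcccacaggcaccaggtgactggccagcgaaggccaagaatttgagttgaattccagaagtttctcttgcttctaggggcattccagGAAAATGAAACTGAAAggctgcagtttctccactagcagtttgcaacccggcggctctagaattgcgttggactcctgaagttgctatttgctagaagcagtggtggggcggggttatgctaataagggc
Rsad2: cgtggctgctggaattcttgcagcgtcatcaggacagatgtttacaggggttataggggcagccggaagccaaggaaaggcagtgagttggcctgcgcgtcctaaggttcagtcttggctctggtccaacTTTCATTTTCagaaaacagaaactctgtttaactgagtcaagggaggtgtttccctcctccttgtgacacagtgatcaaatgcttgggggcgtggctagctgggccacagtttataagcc
Ifit1: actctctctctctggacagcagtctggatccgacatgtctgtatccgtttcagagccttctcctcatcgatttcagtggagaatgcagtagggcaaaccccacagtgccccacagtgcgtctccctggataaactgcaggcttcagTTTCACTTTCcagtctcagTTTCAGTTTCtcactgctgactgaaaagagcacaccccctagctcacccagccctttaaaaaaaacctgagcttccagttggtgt
Isg15: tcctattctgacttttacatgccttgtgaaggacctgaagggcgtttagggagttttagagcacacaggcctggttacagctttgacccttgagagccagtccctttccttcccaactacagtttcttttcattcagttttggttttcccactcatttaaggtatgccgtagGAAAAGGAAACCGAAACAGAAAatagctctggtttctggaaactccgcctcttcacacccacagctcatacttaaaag
Counted from the start, the element of Isg15 lay at positions -78 to -57 as a run of overlapping copies, that of Bst2 lay at positions -130 to -115, and Ifit1 had a pair of separate copies.

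Shorter sites of 30 bases are given for 5 other promoters, with the element again in capitals. Oas1a (chr5:120907523-120907552), Ddx58 (chr4:40239804-40239833) and Eif2ak2 (chr17:78882535-78882564), all on the minus strand, had promoter peaks with higher percentiles in the Tie2-Cre set. Of these, Eif2ak2 alone could be tested between the sets, since the promoters of Oas1a and Ddx58 lacked a peak in some libraries of the Mx1-Cre set. Ifit3 (chr19:34583363-34583392 and chr19:34583397-34583426, plus strand) and Ifitm3 (chr7:141010723-141010752 and chr7:141010706-141010735, minus strand) had no promoter peak in any library.
Oas1a: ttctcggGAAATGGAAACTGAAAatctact
Ddx58: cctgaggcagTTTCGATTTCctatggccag
Eif2ak2: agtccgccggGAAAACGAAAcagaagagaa
Ifit3: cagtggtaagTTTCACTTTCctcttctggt
Ifit3: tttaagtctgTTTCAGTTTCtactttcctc
Ifitm3: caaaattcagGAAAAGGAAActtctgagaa
Ifitm3: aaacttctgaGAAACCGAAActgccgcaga

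The authors deposited 1 peak list per library, with 51510 to 56245 peaks in FL 1, FL 2 and KO 1, 74026 in KO 2, and 91586 to 104605 in the Tie2-Cre set. The set of a library and the length of its list therefore cannot be told apart. Values are given below as the percentile of a peak by its deposited -log10 q, the significance of the peak, within the list of its own library, with 100 for the strongest. In bulk chromatin, a larger share of cells with an open site and a wider opening in each cell cannot be told apart. Regions of the 10 granulocyte-macrophage progenitor markers (Kit, Cd34, Mpo, Elane and others) were present for 10 of 10 genes in every library. Peaks within 10 kb do not separate cell types: 5 of 5 B cell, 5 of 5 macrophage and 5 of 5 plasmacytoid dendritic cell genes also had one in every library, 4 to 5 of 7 T and NK cell genes, 3 to 4 of 5 endothelial genes and 2 to 5 of 5 erythroid genes, fewest in FL 2. Ncr1 and Emcn had none, and Bst2 is both a plasmacytoid dendritic cell marker and one of the interferon response genes. The part of other cell types in the results was not tested.

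Most interferon response genes had a region open in all 8 libraries, and so in each Dek genotype, inside them or within 10 kb. Of their 213 regions, 82 (38.5%) had a peak in all 8 libraries, against 33321 of 138385 regions genome-wide (24.1%), and 31 (14.6%) had one in a single library, against 23.5%. The regions genome-wide were not limited to those near genes. A region in all 8 libraries was present for 30 of the 37 genes, the exceptions being Mx1, Ifit1, Ifit3, Oas1a, Oas2, Ifi44 and Ifitm1, all antiviral effectors. The share of all genes with such a region was not counted. FL 1, FL 2 and KO 1 held 48.8%, 52.1% and 51.2% of the 213 regions and KO 2 held 66.2%. FL 3, KO 3, 4S-A 1 and 4S-A 2 held 74.6%, 80.8%, 83.6% and 76.5%. Over all regions the same libraries held 34.5%, 37.0%, 38.3% and 49.9%, and then 64.7%, 65.4%, 73.4% and 65.9%. The libraries of the Tie2-Cre set, with the longer lists, held more of both.

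**Figure D1:**
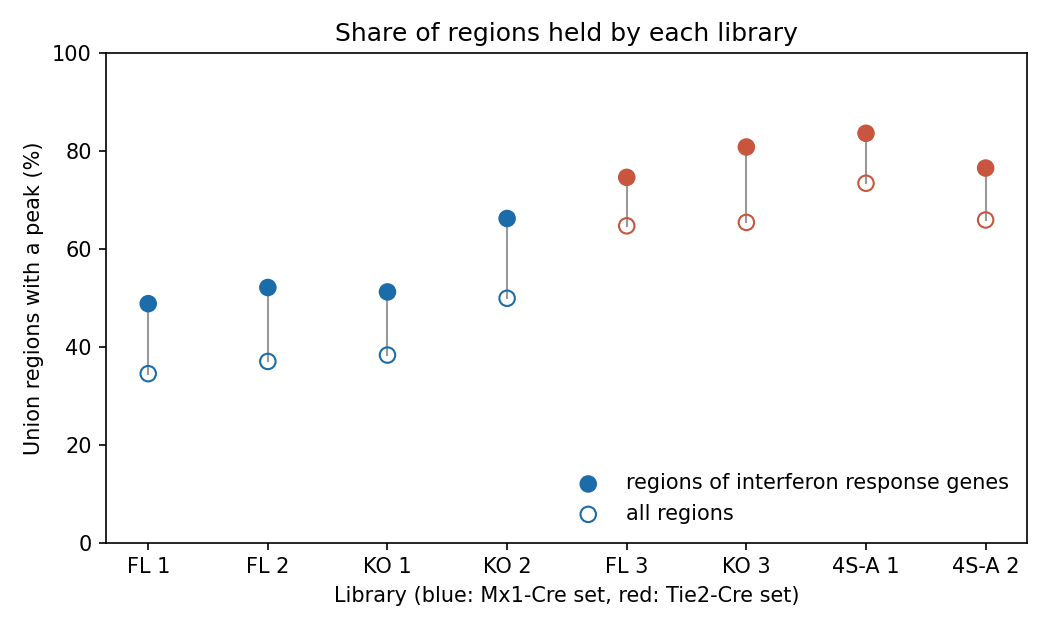
Share of merged regions in which each library had a peak, in percent (vertical axis), for the 213 regions of the interferon response genes (filled points) and all 138385 regions (open points), by library (horizontal axis; blue, Mx1-Cre set; red, Tie2-Cre set). The filled point lies above the open point in each library, from 48.8% against 34.5% in FL 1 to 83.6% against 73.4% in 4S-A 1.

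As a share of its own list, each library gave the interferon response genes a like amount. The share was 0.21% in FL 1 (95% exact Clopper-Pearson interval 0.172% to 0.253%), 0.211% in FL 2, 0.199% in KO 1 and 0.203% in KO 2. It was 0.174% in FL 3 (0.148% to 0.203%), 0.187% in KO 3, 0.174% in 4S-A 1 and 0.175% in 4S-A 2. The intervals, which cover counting error only, overlapped between FL and KO within each set, and when the lists were trimmed to the 51510 strongest peaks FL 3 had the highest share at 0.237% and KO 1 the lowest at 0.208%.

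The receptor genes had 22 regions, and the promoter of Ifnar1, which encodes the first receptor chain, carried the one with the highest mean percentile over the 8 libraries (chr16:91484508-91485827), which is what strongest region means for each role below. It stood at percentile 98.8 in FL 1, 97.9 in FL 2, 99.4 in KO 1, 99.1 in KO 2, 96.6 in FL 3, 96.9 in KO 3, 97.9 in 4S-A 1 and 94.4 in 4S-A 2. Every library placed it among the top peaks of its list, although a region near Ifnar2 (chr16:91366312-91367540) was stronger in FL 3 at 97.1, in KO 3 at 97.7 and in 4S-A 2 at 96.5. For the Ifnar1 promoter, FL and KO differed by less than 2 percentiles in each comparison of their means. The 7 receptor regions present in all 8 libraries (31.8%) had a median percentile of 87.4 over the Mx1-Cre set and 87.8 over the Tie2-Cre set.

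The signalling and transcription factor genes had the largest share of regions present in all 8 libraries, 26 of 52 (50.0%). Their strongest region was the promoter of Stat2 (chr10:128270168-128271197), whose product carries the signal from the receptor to the nucleus and whose upstream element is printed above. It stood at 98.1 in FL 1, 98.7 in FL 2, 98.0 in KO 1, 98.8 in KO 2, 98.9 in FL 3, 98.4 in KO 3 and 98.4 in both 4S-A libraries, a range of less than 1 percentile. This region also lies near Apof. The promoter of Irf1, a transcription factor induced by interferon gamma, was likewise strong, at 91.4 to 95.5 over the 8 libraries. Irf5, a factor that acts downstream of Toll-like receptors, had a promoter peak in FL 1 at 21.9 and in FL 3, KO 3, 4S-A 1 and 4S-A 2 at 38.0, 51.2, 54.2 and 55.3, but none in FL 2, KO 1 or KO 2.

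Among the sensor genes, 15 of 41 regions (36.6%) were present in all 8 libraries. The strongest lay near Trim25, a ubiquitin ligase that activates the RNA sensor RIG-I (chr11:89024057-89024797), at 90.8 in FL 1, 93.1 in FL 2, 93.9 in KO 1, 95.4 in KO 2, 95.2 in FL 3, 92.9 in KO 3, 91.9 in 4S-A 1 and 89.3 in 4S-A 2. Both KO libraries of the Mx1-Cre set were above both FL libraries there, and KO 3 was below FL 3. The promoter of Ifih1, which encodes the RNA sensor MDA5, was open in all 8 libraries at 73.0 to 89.4. The promoter of Ddx58, which encodes RIG-I, had no peak in FL 1, FL 2 or KO 1, stood at 32.4 in KO 2 and at 61.9, 63.3, 73.3 and 61.3 in FL 3, KO 3, 4S-A 1 and 4S-A 2. The 3 lists without a peak there were the shortest, and the part of list length was not tested.

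The negative regulators Usp18, which removes ISG15 from proteins and blocks the receptor, and Adar, which edits double-stranded RNA, had 5 of 13 regions (38.5%) in all 8 libraries. The strongest was a promoter of Adar (chr3:89729840-89731325), at 90.8 in FL 1, 86.4 in FL 2, 85.2 in KO 1, 92.7 in KO 2, 98.3 in FL 3, 98.0 in KO 3, 97.7 in 4S-A 1 and 96.9 in 4S-A 2. The FL and KO values overlapped in the Mx1-Cre set, and all 4 libraries of the Tie2-Cre set were higher.

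The antiviral effectors had 85 regions, 29 of them (34.1%) in all 8 libraries. Their strongest region lay near Bst2, which encodes tetherin, a membrane protein that holds budding virus at the cell surface (chr8:71542547-71543477, close to Mvb12a). It stood at 93.8 in FL 1, 93.1 in FL 2, 95.4 in KO 1, 95.8 in KO 2, 97.8 in FL 3, 95.6 in KO 3, 96.7 in 4S-A 1 and 95.5 in 4S-A 2. KO was above FL in the Mx1-Cre set and below it in the Tie2-Cre set, by a few percentiles each time. The promoter of Bst2 itself stood at 90.6, 87.5, 85.8 and 89.8 in FL 1, FL 2, KO 1 and KO 2, and at 96.4, 93.9, 96.2 and 95.8 in FL 3, KO 3, 4S-A 1 and 4S-A 2. The percentiles of FL and KO overlapped in the Mx1-Cre set. Ranked among the regions present in all 8 libraries, both KO libraries of that set were below both FL libraries. Isg15, a ubiquitin-like protein attached to others during the response, had no promoter peak, and its strongest region was one close to Agrn (chr4:156197054-156198279), at 89.7 to 95.9 over the 8 libraries.

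Peaks at the promoters themselves were more frequent than for protein-coding genes in general. Of the 31 genes with a promoter window, 20 (64.5%) had a peak over it in all 8 libraries, against 8561 of 17273 protein-coding genes (49.6%), and 4 (12.9%) had none in any library, against 37.5%. The 4 without a peak were Isg15, Ifit3, Ifitm3 and Ifi44. Genes with the response element core did not have a promoter peak more often: 8 of the 14 genes with the core had a peak in all 8 libraries, 3 in some and 3 in none, and of the 17 genes without it 12 had a peak in all 8, 4 in some and 1 in none. Ifit3 and Isg15 hold the core upstream of the start and Ifitm3 past it, as printed above.

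**Figure D2:**
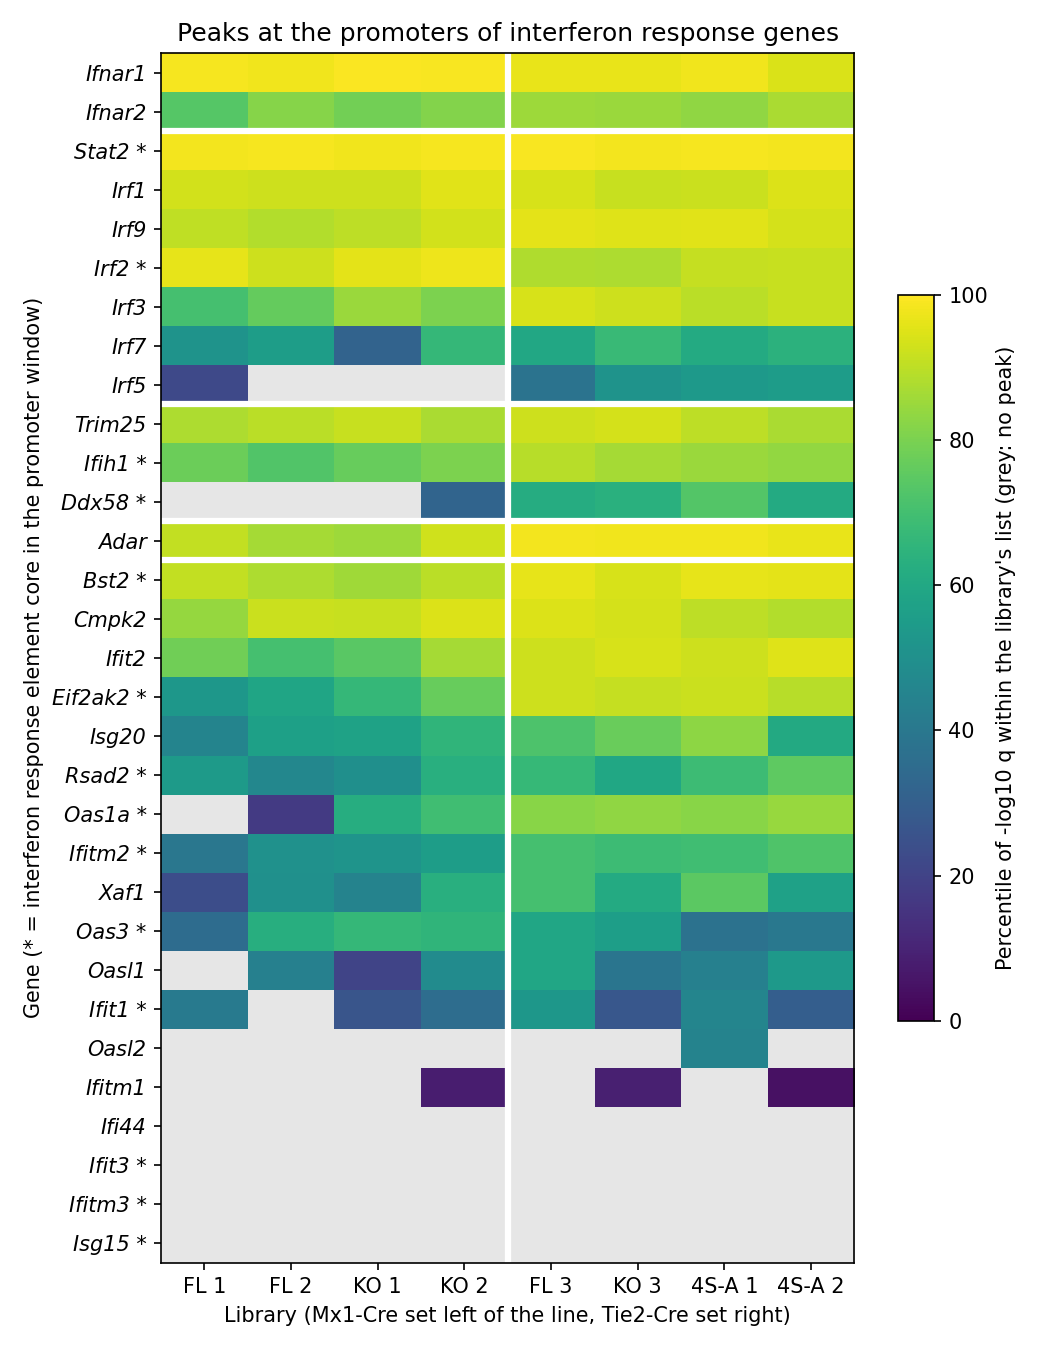
Percentile of the -log10 q of the promoter peak within its library's own list (colour scale, 0 to 100; grey, no peak) for the 31 genes with a promoter window (vertical axis, grouped by role, with an asterisk for the response element core) in the 8 libraries (horizontal axis; Mx1-Cre set left of the white line, Tie2-Cre set right). Ifnar1, Stat2, Irf1, Irf9 and Irf2 are bright throughout, and Ifi44, Ifit3, Ifitm3 and Isg15 are grey throughout.

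Among the effectors, several promoter peaks were weak or moderate. Ifit1, which binds viral RNA lacking the methylated cap of the host, stood at 40.8 in FL 1, 26.5 in KO 1, 35.5 in KO 2, 52.8 in FL 3, 27.2 in KO 3, 45.7 in 4S-A 1 and 29.7 in 4S-A 2, with no peak in FL 2. Rsad2, which encodes viperin, an enzyme that makes a chain-ending nucleotide, stood at 54.5, 46.5, 49.9 and 63.1 in FL 1, FL 2, KO 1 and KO 2 and at 66.8, 59.5, 68.6 and 75.3 in FL 3, KO 3, 4S-A 1 and 4S-A 2. For both genes FL and KO overlapped in the Mx1-Cre set, and KO 3 was below FL 3. Oas3, which makes the second messenger that activates RNase L, had 35.4, 62.9, 66.8 and 65.4 in the Mx1-Cre set in the same order, and 59.0, 56.2, 37.7 and 39.9 in the Tie2-Cre set. By percentile, the low values of Oas3 were thus FL 1 and both 4S-A libraries. Ranked among the regions present in all libraries, FL 3 and KO 3 were below FL 1 as well. Oasl2 had a promoter peak in 4S-A 1 alone, at 44.9, and Ifitm1 in KO 2, KO 3 and 4S-A 2 at 8.1, 8.8 and 4.7.

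In the comparison of Dek knockout with control in the Mx1-Cre set, 8 regions of interferon response genes were gained and 1 was lost. Gained means a peak in KO 1 and KO 2 and in neither FL 1 nor FL 2, and lost means the reverse. The 8 gained made up 7.77% of the 103 regions that could be gained, where 13.5% of all regions were gained, and the 1 lost made up 1.14% of 88, where 2.07% of all regions were lost. Both shares were below those of all regions. Both KO lists were longer than both FL lists. With a library left out the rule asks for less, so the counts that follow cannot be lower. Without KO 2, the longest list of the set, 11 were gained (10.2%, where 19.5% of all regions were) and 5 lost (5.68%, where 9.02% were). Without KO 1, 28 were gained (20.0%, where 29.0% were) and 2 lost (2.27%, where 2.6% were). Without FL 1 the counts were 13 gained (12.6%, where 19.8% were) and 6 lost (5.45%, where 13.0% were). Without FL 2 they were 16 gained (15.5%, where 21.4% were) and 6 lost (5.83%, where 9.49% were).

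The gained regions lay in the lower part of the KO 1 and KO 2 lists. One inside Oasl2, a relative of the oligoadenylate synthetases (chr5:114902398-114902843), stood at 32.0 in KO 1 and 42.2 in KO 2, and was also present in FL 3 at 51.3, KO 3 at 61.5, 4S-A 1 at 56.4 and 4S-A 2 at 59.2. One inside Rsad2 (chr12:26449482-26449993) stood at 20.2 in KO 1, 47.6 in KO 2, 58.4 in FL 3, 60.8 in KO 3, 76.7 in 4S-A 1 and 67.4 in 4S-A 2. Both were thus open in the control of the other set.

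The other 6 were present in FL 3 as well. The pair inside Ifnar2, the second receptor chain, stood at 40.4 and 11.3 in KO 1 and KO 2 at chr16:91382246-91382968, and at 5.2 and 27.99 at chr16:91386776-91387633. In FL 3, KO 3, 4S-A 1 and 4S-A 2 they stood at 40.2, 38.9, 27.6 and 13.3, and at 25.9, 53.1, 79.0 and 72.5. All 4 libraries of the Tie2-Cre set therefore held both.

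A region inside Usp18 (chr6:121251220-121251930) stood at 12.6 in KO 1 and 34.7 in KO 2, and at 15.4, 21.2, 23.8 and 26.9 in FL 3, KO 3, 4S-A 1 and 4S-A 2. One near Irf2, a repressor of interferon genes (chr8:46852170-46852716), stood at 31.4 and 13.5, and at 28.8, 1.76, 21.6 and 17.2 in the same order of libraries. Both lay in the lower part of each list that held them. One near Ifitm1, which blocks virus entry (chr7:140971051-140971746), stood at 9.86 and 1.15, and at 19.4, 27.4, 20.9 and 13.2. The last, inside Ifit2 (chr19:34569965-34570428), a partner of Ifit1, stood at 33.7 in KO 1, 30.7 in KO 2, 47.9 in FL 3, 7.04 in KO 3 and just 0.757 in 4S-A 2, with no peak in 4S-A 1. The region lost lay near Trim25 (chr11:89027876-89028361), at 9.04 in FL 1 and 9.48 in FL 2, with peaks in FL 3 at 35.8, KO 3 at 18.1, 4S-A 1 at 37.8 and 4S-A 2 at 47.4.

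The strength of the 82 regions present in all 8 libraries was compared by rank. In each library these and all other regions common to the 8 were ranked by -log10 q, the ranks were turned into normal scores, and limma was fitted to all 33321 with Benjamini-Hochberg adjustment. None of the 82 passed an adjusted p of 0.05 between KO and FL in the Mx1-Cre set, where 0.006% of all regions were called higher (2 regions) and 0.0% lower. At an unadjusted p under 0.05, 4 of the 82 were higher (4.88%) and 3 lower (3.66%), against 7.76% and 7.62% of all regions. The median difference was 0.0047 for the interferon response genes and -0.0058 for all regions, and the 5th to 95th percentile of the 82 ran from -0.44 to 0.57, inside the -0.73 to 0.74 of all regions. The median SE of a difference over all regions was 0.221, and a missed threshold does not show that a region was unchanged. Both KO libraries ranked above both FL libraries for 14 of the 82 (17.1%), where 21.5% of all regions did, and below them for 8 (9.76%), where 22.2% did.

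**Figure D3:**
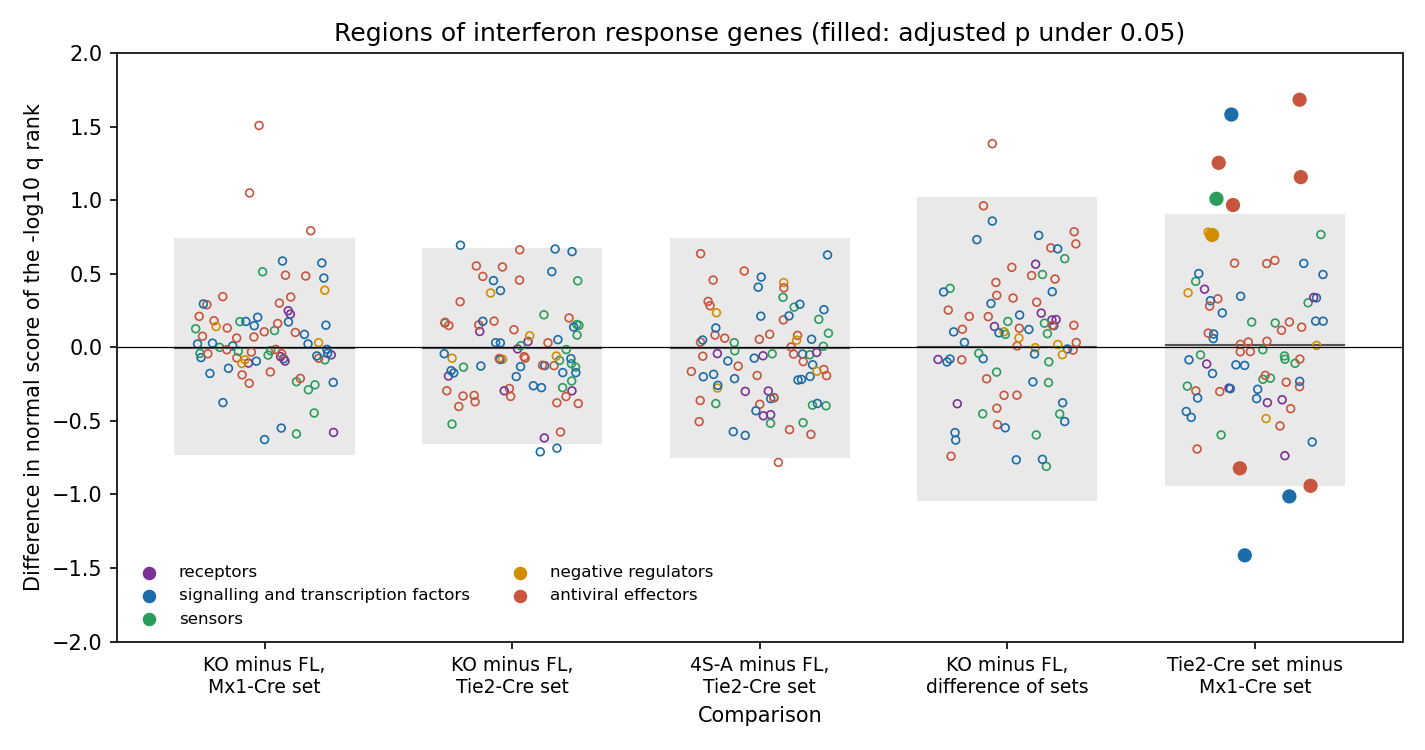
Difference in the normal score of the -log10 q rank (vertical axis, no unit) for each of the 82 regions of interferon response genes present in all 8 libraries (points, coloured by role; filled, adjusted p under 0.05) in 5 comparisons (horizontal axis); the grey band spans the 5th to 95th percentile of all 33321 regions and the line in it their median. No point is filled in the first 4 comparisons, and 7 above and 4 below 0 are filled in the comparison of the sets.

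The region that came nearest to the threshold in the Mx1-Cre set lay near Bst2 (chr8:71528215-71529339). It stood at percentile 8.33 in FL 1, 31.5 in FL 2, 64.0 in KO 1, 71.3 in KO 2, 79.6 in FL 3, 88.1 in KO 3, 82.3 in 4S-A 1 and 69.0 in 4S-A 2. Both FL libraries of the Mx1-Cre set were far below the other 6. The difference of KO minus FL there was 1.51 (SE 0.327, limma adjusted p = 0.109). A region shared by Oasl1 and Oasl2 (chr5:114916380-114917137) had the same order within the Mx1-Cre set, at 17.98 in FL 1, 52.1 in FL 2, 68.9 in KO 1, 74.5 in KO 2, 79.7 in FL 3, 73.3 in KO 3, 71.3 in 4S-A 1 and 73.4 in 4S-A 2. Its difference was 1.05 (SE 0.338, limma adjusted p = 0.208). FL 1 was the lowest library for both regions. At a limma unadjusted p under 0.05, the other regions higher in KO were inside Irf2 (difference 0.59, adjusted p = 0.221) and near Oas3 (0.79, adjusted p = 0.237). The 3 lower ones were inside Irf2 (-0.63, adjusted p = 0.265), near Trim25 (-0.59, adjusted p = 0.258) and near Ifnar2 (-0.58, adjusted p = 0.257). The region shared by Oasl1 and Oasl2 was singled out after its values were seen, as were the regions of Oas1a and Oas2 that follow.

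The promoter of Oas1a, another oligoadenylate synthetase (chr5:120906814-120907899), followed the order of the regions near Bst2 and of Oasl1 and Oasl2. It had no peak in FL 1 and stood at 16.9 in FL 2, 62.5 in KO 1, 69.4 in KO 2, 82.3 in FL 3, 83.4 in KO 3, 82.1 in 4S-A 1 and 84.6 in 4S-A 2. The libraries of the Tie2-Cre set, control included, lay within a few percentiles of each other, and KO 1 and KO 2 lay between them and FL 2. A region over the higher-coordinate end of Oas2 (chr5:120749294-120750249, also within 10 kb of Oas3) stood at 17.2 in FL 1, 45.6 in KO 1, 49.9 in KO 2, 84.3 in FL 3, 72.1 in KO 3, 79.7 in 4S-A 1 and 80.7 in 4S-A 2, with no peak in FL 2. Lacking a peak in 1 library, neither entered the fit.

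In the Tie2-Cre set, the comparison of KO 3 with FL 3 had 1 library on each side, so its presence counts have no replicate check. Of the regions of interferon response genes, 20 were gained (11.7% of 171, where 15.3% of all regions were) and 7 lost (4.43% of 158, where 14.4% were). That balance turned with list length: with the lists trimmed to 51510 peaks, 7 were gained (6.19%, where 12.7% of all regions were) and 15 lost (12.4%, where 13.0% were). No region gained or lost here, or in the 4S-A comparison that follows, had a mean percentile of 50 or more in the libraries that held it. By rank, none of the 82 was called (0.0% of all regions higher and 0.0% lower), and none had an unadjusted p under 0.05, against 2.91% of all regions higher and 2.74% lower. The fit takes the spread of these lone libraries from the other groups. The smallest limma adjusted p among the 82 was 0.885, and the median difference was -0.0741, against -0.0036 for all regions.

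The 4S-A libraries, compared with FL 3, gained 14 regions (9.15% of 153, where 16.4% of all regions were gained) and lost 7 (4.43% of 158, where 11.7% were lost). With lists of equal length 3 were gained (2.88%, where 13.8% of all regions were) and 13 lost (10.7%, where 13.9% were), so this balance turned as well. With 4S-A 2 alone, 16 were lost (10.1%, where 18.8% of all regions were) and 20 gained (12.3%, where 20.3% were). With 4S-A 1 alone, 10 were lost (6.33%, where 14.2% were) and 30 gained (16.9%, where 24.3% were). By rank none of the 82 was called (0.0% of all regions higher and 0.0% lower). At an unadjusted p under 0.05, 1 was higher (1.22%) and 3 lower (3.66%), against 5.63% and 6.04% of all regions. The nearest to the threshold, named after its values were seen, was a region near Ifitm2 (chr7:140953594-140954601), at 73.9 in FL 3, 56.6 in 4S-A 1 and 49.4 in 4S-A 2, and at 57.5, 64.8, 74.8, 77.7 and 66.7 in FL 1, FL 2, KO 1, KO 2 and KO 3. Ifitm2, like Ifitm1, blocks virus entry. Both 4S-A libraries were below each of the other libraries, and the difference from FL 3 was -0.78 (SE 0.224, limma adjusted p = 0.248).

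Whether the effect of the knockout differed between the sets was tested directly, as KO minus FL in the Mx1-Cre set minus the same in the Tie2-Cre set. None of the 82 regions was called (0.0% of all regions higher and 0.0% lower). At an unadjusted p under 0.05, 1 was higher (1.22%, against 4.82% of all regions) and 0.0% were lower, against 5.44%. The higher one was the region shared by Oasl1 and Oasl2, with a difference of 1.38 (SE 0.586, limma adjusted p = 0.485). The median over the 82 was 0.102, against 0.0014 for all regions.

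Regions called between the sets outnumbered those called between the genotypes, for these genes as for all regions. This comparison, of the FL and KO libraries of the Tie2-Cre set with those of the Mx1-Cre set, was added after the data had been seen. Cre line, control genotype, list length and the form of the peak names inside the lists all differ between the sets and cannot be told apart. Of the 82 regions, 7 were higher in the Tie2-Cre set (8.54%, where 7.57% of all regions were) and 4 lower (4.88%, where 10.1% were), at a limma adjusted p under 0.05. By the rank of fold enrichment 10 were higher and 14 lower, where 5708 and 7079 of all 33321 regions were. By log2 fold enrichment 10 were higher and 21 lower, where 5142 and 8892 of all regions were. The balance among the 82 thus turned, while all regions had more lower than higher calls in each ranking. In presence, 13 regions were gained (8.61% of 151, where 19.7% of all regions were) and 0 of 82 lost (where 0.447% were). The count gained fell to 4 with lists of equal length (3.77%, where 7.35% of all regions were). Leaving out a library cannot lower the count. It was 28 without KO 2 (18.5%, where 28.2% were), 28 without FL 3 (16.4%, where 28.7% were) and 20 without KO 3 (12.7%, where 26.6% were).

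The difference that stood out most was near Isg20, an exonuclease that degrades viral RNA (chr7:78902173-78903866, also close to Aen). This region stood at 13.3 in FL 1, 18.1 in FL 2, 20.2 in KO 1, 51.8 in KO 2, 81.0 in FL 3, 83.9 in KO 3, 87.0 in 4S-A 1 and 86.0 in 4S-A 2. By percentile, no library of one set overlapped the other, with KO 2, the longest list of its set, nearest to the Tie2-Cre set. A list that holds more weak peaks raises the percentile of each shared peak, and the part of list length was not tested. Normal scores of the rank among shared regions ran from -1.88 to -1.13 in the Mx1-Cre set. In the Tie2-Cre set they ran from -0.0166 to 0.307. How many of all regions separate the sets in this way was not counted. For the region near Isg20 the difference between the sets was 1.68 (SE 0.184, limma adjusted p = 0.00756). A region inside Stat2 (chr10:128283928-128284750) stood at 23.7, 23.0, 17.4 and 47.5 in FL 1, FL 2, KO 1 and KO 2, and at 78.1, 86.5, 63.1 and 68.1 in FL 3, KO 3, 4S-A 1 and 4S-A 2. Its difference was 1.58 (SE 0.194, adjusted p = 0.00828), again with no overlap, in contrast to the promoter of the same gene.

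Eif2ak2 encodes PKR, a kinase that stops translation on sensing double-stranded RNA. Its promoter (chr17:78881880-78883094) stood at 52.9 in FL 1, 58.9 in FL 2, 66.5 in KO 1, 76.8 in KO 2, 92.4 in FL 3, 91.1 in KO 3, 92.0 in 4S-A 1 and 89.4 in 4S-A 2. The percentiles of the sets did not overlap, and the difference was 0.97 (SE 0.156, adjusted p = 0.0126). A second region, near Sult6b1 (chr17:78890841-78891581), stood at 41.9, 58.4, 35.4 and 65.2 in FL 1, FL 2, KO 1 and KO 2 and at 88.3, 90.5, 92.0 and 87.8 in FL 3, KO 3, 4S-A 1 and 4S-A 2 (difference 1.25, SE 0.227, adjusted p = 0.0165).

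The other 3 regions that were higher in the Tie2-Cre set were less stable. The region near Bst2 described above had a difference of 1.16 (adjusted p = 0.035). A region inside Trim25 (chr11:89006257-89006981) stood at 59.5, 36.7, 38.5 and 57.5 in FL 1, FL 2, KO 1 and KO 2 and at 83.2, 85.8, 78.7 and 74.4 in FL 3, KO 3, 4S-A 1 and 4S-A 2, with a difference of 1.01 (adjusted p = 0.0358). The promoter of Adar had a difference of 0.76 (adjusted p = 0.0314), which changed sign when regions were ranked by fold enrichment.

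In the opposite direction, a region near Irf5 (chr6:29523969-29524632) stood at 91.8 in FL 1, 94.2 in FL 2, 89.0 in KO 1, 95.4 in KO 2, 77.9 in FL 3, 75.3 in KO 3, 65.9 in 4S-A 1 and 63.5 in 4S-A 2. Each library of the Mx1-Cre set was above each of the Tie2-Cre set, and the difference was -1.41 (SE 0.175, limma adjusted p = 0.00828). The promoter of Irf2 (chr8:46739175-46740327) stood at 96.3, 92.6, 95.9 and 97.6 in FL 1, FL 2, KO 1 and KO 2 and at 88.3, 87.8, 91.4 and 91.7 in FL 3, KO 3, 4S-A 1 and 4S-A 2 (difference -1.01, SE 0.181, adjusted p = 0.0159). These were strong peaks in both sets. A region just before the start of Isg20 (chr7:78912166-78913252; 77.6, 73.6, 84.6, 81.0, 68.7, 77.2, 83.1 and 78.6 in the order of the libraries above) had a difference of -0.82 and an adjusted p of 0.0294. A region over the lower-coordinate end of Mx2, a relative of Mx1 that the annotation also classes as a transcribed pseudogene (chr16:97534660-97536418), stood at 45.04, 68.4, 77.0, 76.3, 64.2, 56.0, 67.3 and 52.0, with a difference of -0.94 and an adjusted p of 0.042. The percentiles of both overlapped between the sets. The difference in the rank is set among the regions that all 8 libraries share, and a list that holds more weak peaks raises the percentile of each shared peak.

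Of these 11 calls, 4 held in all 10 other settings (the region near Isg20 close to Aen, the one inside Stat2, the promoter of Eif2ak2 and the region near Irf5). The other 7 were lost without 4S-A 1 and without 4S-A 2, which share in the estimate of the spread, and in a fit of the 6 FL and KO libraries alone. The calls near Bst2, in Mx2, in Adar, in Trim25 and before the start of Isg20 were also lost without KO 1, those near Bst2 and in Trim25 without KO 2, those in Mx2 and Adar without FL 2, and that before the start of Isg20 without FL 1. Ranking by fold enrichment also ended the calls in Mx2 and Adar. The 10 settings do not include the 2 kb window or a -log10 q of at least 5. The 2 kb window left out the region near Isg20 close to Aen and gave 4 higher and 4 lower. The stricter -log10 q gave 6 higher and 4 lower.

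Mx1, known for the antiviral GTPase made by mice with an intact copy and classed as a transcribed pseudogene in the annotation used, was treated apart because KO 1 and KO 2 carry a transgene whose promoter is that of Mx1. The region over the higher-coordinate end of the gene (chr16:97462591-97463760) stood at percentile 69.0 in FL 1, 67.1 in FL 2, 95.4 in KO 1, 95.5 in KO 2, 70.5 in FL 3, 80.0 in KO 3 and lastly 31.7 in 4S-A 2, with no peak in 4S-A 1. That end is where transcription of Mx1 starts, and the summits of the region lay 82 to 126 bp beyond the annotated span. KO 1 and KO 2 were above all other libraries, and KO 3, which carries Tie2-Cre, was above FL 3 by less. The deposited -log10 q was 24.9 for FL 1, 21.7 for FL 2, 69.7 for KO 1, 97.7 for KO 2, 35.9 for FL 3, 58.6 for KO 3 and 11.5 for 4S-A 2. The peak was 458 bp wide for FL 1, 328 for FL 2, 825 for KO 1, 815 for KO 2, 686 for FL 3, 934 for KO 3 and 246 for 4S-A 2.

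**Figure D4:**
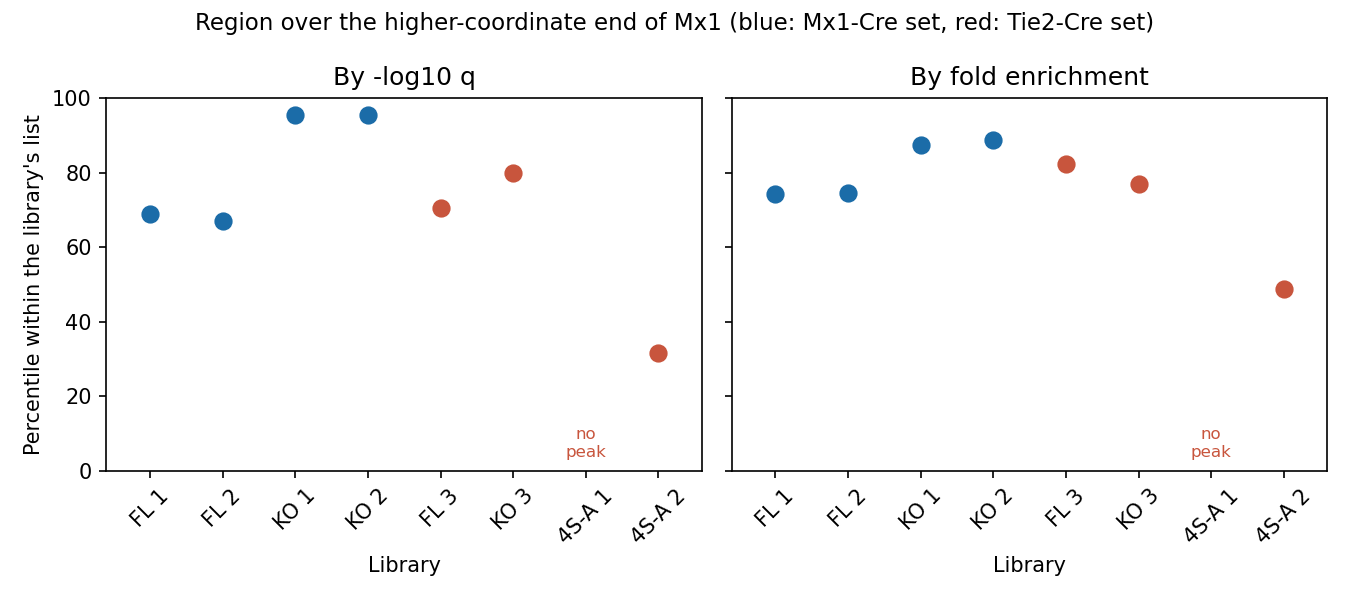
Percentile of the peak over the higher-coordinate end of Mx1 within each library's own list (vertical axis, 0 to 100), by -log10 q (left) and by fold enrichment (right), in the 8 libraries (horizontal axis; blue, Mx1-Cre set; red, Tie2-Cre set). KO 1 and KO 2 are at 95.4 and 95.5 by -log10 q and at 87.4 and 88.7 by fold enrichment, and 4S-A 1 had no peak.

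Since 4S-A 1 had no peak there, this region was tested in the 4 libraries of the Mx1-Cre set, over the 34896 regions that they share. KO exceeded FL by 1.31 (SE 0.202, limma unadjusted p = 0.00091), which missed the threshold after adjustment over all regions (adjusted p = 0.252), as did every other region in that fit. A difference at least as large in size was found for 275 of the 34896 regions (0.788%). By the rank of fold enrichment, the height of the peak over its background, the difference was 0.49 (SE 0.293, adjusted p = 0.533), and 15.4% of regions differed by as much. The fold enrichment was 8.50 for FL 1, 8.05 for FL 2, 10.5 for KO 1, 12.1 for KO 2, 11.01 for FL 3, 9.98 for KO 3 and 6.23 for 4S-A 2. As a percentile of its own list it was 74.2, 74.5, 87.4, 88.7, 82.3, 77.0 and 48.9 in the same order, with KO 1 and KO 2 highest. In a fit of the 7 libraries with a peak, added after the data had been seen, KO 3 minus FL 3 was 0.51 (adjusted p = 1.0), 4S-A 2 minus FL 3 was -1.12 (adjusted p = 0.556) and the difference of the knockout effect between the sets was 0.82 (unadjusted p = 0.0609, adjusted p = 0.708). In the same fit, the Tie2-Cre set lay below the Mx1-Cre set by a difference of -1.01 (SE 0.175, limma adjusted p = 0.0458), 1 of 1470 regions called among 33453. That comparison of the sets includes KO 1 and KO 2, which carry the transgene. By percentile FL 3, at 70.5, was close to FL 1 at 69.0 and FL 2 at 67.1, and the controls alone were not compared in the fit. Loss of Dek and presence of the transgene cannot be told apart in KO 1 and KO 2.

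The other regions of Mx1 did not share that order. One below the lower-coordinate end of the gene (chr16:97443859-97444181) stood at 38.9 in FL 1, 16.9 in FL 2, 51.1 in KO 2, 28.4 in KO 3, 38.2 in 4S-A 1 and 22.3 in 4S-A 2, with no peak in KO 1 or FL 3. One on the other side (chr16:97467837-97468729) stood at 47.3 in FL 1, 48.5 in FL 2, 45.3 in KO 2, 72.8 in FL 3, 47.0 in KO 3, 68.6 in 4S-A 1 and 47.8 in 4S-A 2, with no peak in KO 1. KO 2 was above both FL libraries in the first and below both in the second. Of the remaining 2 regions, one (chr16:97472518-97472905) had peaks in KO 2 at 62.9, KO 3 at 3.29 and 4S-A 2 at 4.78, and the other (chr16:97464568-97464954) in KO 1 alone at 3.08.

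A further 60 genes of the interferon pathways, all found in the annotation, were described in the same way through 366 regions. Of these, 17 were gained in KO of the Mx1-Cre set (9.77% of 174) and 2 lost (1.41% of 142, near Tmem173, which encodes STING, and Samhd1), again below the 13.5% and 2.07% of all regions. None of the 126 present in all libraries was called by limma between the genotypes or for the difference of the sets. Between the sets, 9 were higher (7.14%) and 13 lower (10.3%), close to the 7.57% and 10.1% of all regions. The strongest regions of Jak1 and Tyk2, which encode the kinases bound to the receptor, stood at 95.1 to 97.8 and 91.8 to 95.9 over the 8 libraries.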

How the data were processed

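ATAC-seq was performed on sorted leukemic granulocyte-macrophage progenitors, with about 5000 cells per reaction per the labels' protocols. The build mm10 and the tools featureCounts, MACS2, Picard, Bowtie2 2.2.9 and Trim Galore 0.4.4 are named in the submitters' processing notes, and their order and parameters are not given in the sources used here. The authors deposited 1 narrowPeak list per library, and read depth is unknown. Each deposited peak carries a score, a fold enrichment (a ratio of signal to background), a p-value and a q-value as −log10, and a summit offset; the score and the −log10 p were not used. These values are the authors', describe each peak within its own list, and are not scaled between libraries. Peaks on the 19 autosomes and X were used; 138 to 164 peaks per library lay elsewhere.

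Regions were formed by merging peaks across libraries (Python 3.11.15, pandas 2.3.3). A region with several peaks of a library took the strongest. Presence was counted without a test. Strength was tested with limma 3.58.1 (R 4.3.3) on normal scores of the −log10 q rank over 33321 regions in all 8 libraries, with 5 group means that share 1 estimate of the spread and Benjamini-Hochberg adjustment over all regions. The Mx1 region lacked a peak in 4S-A 1 and was fitted in the Mx1-Cre set alone, apart from the counts of the other genes. The code was tested on simulated data. The genes, lists, roles and tests were chosen with earlier results of these data known. Values in every library are given for regions called, for those lost or gained in the Mx1-Cre set, for the strongest region of each role, and for others said to be chosen after their values were seen; promoter values are given for examples of each role. Alternatives were lists of equal length, a −log10 q of at least 5, a 2 kb window, fold enrichment in place of −log10 q, fewer libraries and a replicate block.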

Additional observations from a re-analysis of the deposited data

How the results depend on the processing

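The 0 calls among the interferon response genes in the comparisons of genotypes, and for the difference of the knockout effect between the sets, held in every setting that gave a value, leaving out each library included. Few regions were called there at all. The most of all 33321 came by log2 fold enrichment, 65 higher and 23 lower for KO in the Mx1-Cre set. For 4S-A that setting gave 20 higher and 75 lower, so 0 among the 82 was near the share of all regions. Presence counts moved with list length and window. In the Mx1-Cre set, gained regions numbered 5 with equal-length lists, and 0 were lost at a −log10 q of at least 5 or with a 2 kb window. Leaving out a library loosens the rule for gained and lost, so those counts cannot fall. In the Mx1-Cre set it gave 11 to 28 gained and 2 to 6 lost. In the Tie2-Cre set, KO gained 7 and lost 15 with equal-length lists, and lost 4 with the 2 kb window. 4S-A gained 3 and lost 13 with equal-length lists, gained 8 and lost 2 with the 2 kb window, and gained 20 to 30 and lost 10 to 16 without either 4S-A library. Between the sets, gained regions numbered 4 with equal-length lists, 5 with the 2 kb window and 14 to 28 with 1 library left out. In each of these settings the share gained or lost was below that of all regions. Calls between the sets numbered 3 higher and 1 lower in the 6 FL and KO libraries alone, 4 higher with the 2 kb window, 10 higher and 14 lower by the rank of fold enrichment, 10 higher and 21 lower by log2 fold enrichment, and 3 to 10 higher and 1 to 5 lower with 1 library left out. Over all regions, calls moved too. In the 6 libraries alone 482 of 34313 were higher and 1061 lower, and with 1 library left out 471 to 2635 were higher and 988 to 3215 lower. The counts by fold enrichment are given above.

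The share of the list was 0.237%, 0.219%, 0.212% and 0.21% in FL 3, KO 3, 4S-A 1 and 4S-A 2 with equal-length lists. With the 2 kb window it was 0.142%, 0.129%, 0.137% and 0.13% in FL 1, FL 2, KO 1 and KO 2, and 0.107%, 0.118%, 0.112% and 0.109% in FL 3, KO 3, 4S-A 1 and 4S-A 2. The Mx1 difference ranged from 1.19 to 1.37 with 1 library left out. The cause of these shifts was not tested. Replicate numbers shared between FL and KO of the Mx1-Cre set did not pair the libraries (correlation of deviations 0.001). These are the numbers of the sample titles; peak names inside the deposited lists number FL 1 and FL 2 the same way but KO 1 as 2 and KO 2 as 3. With the replicate block, 0 regions were called between genotypes, the Mx1 difference was 1.31 (limma adjusted p = 0.258), and 6 were higher and 4 lower between the sets, with the calls near Bst2 and in Mx2 lost. KO 3 against FL 3 gives no value from its own libraries alone or without either of them.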
